A study of Homo sapiens with 48 samples.

Results

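The comparison described here sets the T-REX arm against the light alone arm 12 h after the reaction in HEK293T cells, an epithelial-like line of human embryonic kidney origin. It takes, by their labels, 8 of the 48 RNA libraries of the series, 4 independent replicates of T-REX and 4 of light alone, with all 14685 genes of the count table. In T-REX, a protein of interest is fused to Halo, the photocaged electrophile Ht-PreHNE(alkyne) is bound to Halo and excess probe is rinsed off, and light then frees HNE (4-hydroxynonenal, a reactive aldehyde that arises from oxidized lipids) beside the fused protein. All groups used here, the controls included, are HEK293T cells of genotype WT that were transfected with a plasmid for NCBP1 fused to Halo, so each holds the plasmid-borne protein beside the endogenous one, and how many cells took up the plasmid is not given in the sources used here. The 16 libraries of 12 h comprise T-REX (probe and light), light alone, probe alone (probe without light) and DMSO (solvent, no light), with 4 libraries each. For light alone, the study's methods list the probe and light, the same agents as for T-REX, whereas the group's name and the labels give light only. Which of these applies to the libraries cannot be told apart from the sources used here.

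NCBP1 is the larger partner of NCBP2 in the cap-binding complex of the nucleus, which holds the cap of new RNA polymerase II transcripts and hands them to splicing, 3′ end processing, export and a first round of translation. Many genes called at 12 h are textbook members of stress programmes. In the hypoxia programme, HIF (an oxygen-regulated alpha subunit paired with ARNT) binds short response elements near genes for glucose uptake, glycolysis, mitochondrial turnover and collagen modification. In the integrated stress response, phosphorylation of eIF2 slows bulk translation but favours the transcription factor ATF4, which drives genes for amino acid synthesis, amino acid uptake and tRNA charging.

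Total counts in the 8 libraries ran from 26799819 to 37099535, and the lowest count of any gene in them was 10. The table lists 5 of 6 HEK293T markers (IRS4, NEFM, NEFL, VIM and LIN28B), with a summed level of 1418 to 1460 CPM (counts scaled to the library total with TMM factors) under T-REX and 1534 to 1615 CPM with light alone. The sixth, PAX2, and the markers of blood, liver, endothelium and fibroblasts are not in the table. DMSO libraries stood farther from one another than those of the other arms. The median SD of log2 CPM within an arm was 0.144 for DMSO against 0.0781 for T-REX and 0.0743 for light alone.

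Reads of NCBP1 stem from the plasmid and from the endogenous gene together. NCBP1 stood at 60748, 55582, 53460.00 and 65388 CPM under T-REX and 35301, 43365, 36488 and 50254 CPM with light alone. All 4 T-REX values lay above the 4 of light alone, but the difference did not pass the test (edgeR quasi-likelihood, log2 fold change 0.51, SE 0.128, adjusted p = 0.0678). It did pass with the RUV factors (edgeR, adjusted p = 0.019), with DESeq2 (adjusted p = 0.0232) and with the replicate number as a block (edgeR, adjusted p = 4.05e-05). NCBP1 took 5.42% to 6.56% of the counts under T-REX, 3.60% to 5.07% with light alone, 5.41% to 7.53% with probe alone and 3.09% to 4.18% with DMSO. Whether this difference in plasmid transcript has a part in any gene below was not tested.

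Of 14685 genes, 189 (1.29%) were called at an adjusted p of at most 0.05 in edgeR's quasi-likelihood test over the 16 libraries of 12 h. Of these, 73 (0.497% of all genes) were higher and 116 (0.79%) were lower under T-REX, and 1891 genes had an unadjusted p of at most 0.05. Changes were small. The median called gene moved by 0.37 on the log2 scale in size, 50 called genes moved by at least 0.5 and 5 by at least 1. In 187 of the 189 called genes the T-REX and light alone values did not overlap. A call therefore nearly always comes with groups that are apart, so these are no further support for a called gene named below. Groups also lay apart in some genes that were not called, such as ERO1A and VEGFA. The share of all genes tested with groups apart was not counted. In bulk RNA, fewer cells that express a gene and less RNA per cell cannot be told apart.

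The number of calls depended on the fit. It was 1127 when only the 8 libraries were fitted, 865 without the DMSO arm, 1266 with the 2 deposited RUV factors of each library (scores of unwanted variation) as covariates and 409 with DESeq2. Leaving out 1 of the 8 libraries left 94 calls without T-REX replicate 1, 101 without light alone replicate 3, 115 without light alone replicate 2, 125 without light alone replicate 1 and up to 150 with the others. Of the 189 calls, 84 (27 higher, 57 lower) held whichever of the 8 libraries was left out, and 17 held in none of these 8 fits. For genes named below, the number of the 8 fits that kept the call is given wherever it was under 8.

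**Figure D1:**
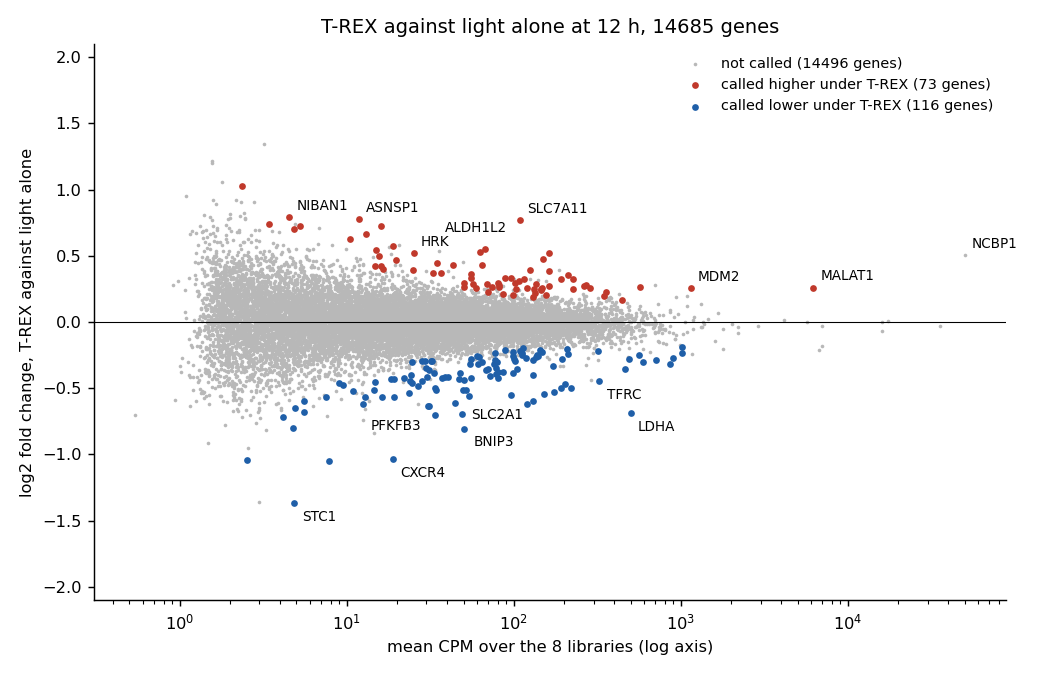
Log2 fold change of T-REX against light alone at 12 h for 14685 genes, plotted on the y axis against the mean CPM of the 8 libraries on a log x axis. Red points are the 73 genes called higher, blue points the 116 called lower and grey points the rest. Called genes with the largest changes in both directions, such as STC1 (-1.36) and NIBAN1 (0.79), have few counts, while LDHA, SLC7A11 and TFRC are abundant, and NCBP1, the most abundant labelled gene, was not called.

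Among hypoxia targets outside metabolism, 13 of 24 measured genes fell and 0 rose, with a median log2 fold change of -0.41 over the 24 beside 0.00091 over all genes tested. CXCR4, a chemokine receptor, had the smallest p of the list. It stood at 10.8, 13.3, 13.3 and 12.3 CPM under T-REX and 22.9, 29.4, 24.8 and 24.8 CPM with light alone. Every T-REX library was below every light alone library (log2 fold change -1.03, SE 0.107, adjusted p = 9.2e-06). BNIP3, a mitochondrial receptor that recruits the autophagy machinery, stood at 32.5, 35.4, 44.98 and 34.6 CPM under T-REX and 64.7, 70.9, 64.3 and 57.98 CPM with light alone. The groups did not overlap, and the mean under T-REX was 42.97% lower (log2 fold change -0.81, SE 0.0966, adjusted p = 7.79e-05). Its relative BNIP3L stood at 119, 118, 131 and 129 CPM under T-REX and 171, 198, 182 and 171 CPM with light alone (log2 fold change -0.54, SE 0.0854, adjusted p = 0.00118). STC1, a secreted glycoprotein hormone, changed most of all called genes but from low levels, 3.74, 1.84, 3.35 and 1.94 CPM under T-REX and 7.6, 7.97, 7.6 and 4.83 CPM with light alone. The highest T-REX library came near to light alone replicate 4, which was itself far below the 3 other light alone libraries (log2 fold change -1.36, SE 0.242, adjusted p = 0.00289).

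Of the enzymes that modify collagen, P4HA1 and PLOD2 were called. P4HA1, a subunit of prolyl 4-hydroxylase, stood at 39.9, 43.3, 48.9 and 42.7 CPM under T-REX and 59.5, 73.6, 62.7 and 61.2 CPM with light alone. The groups were apart, with light alone replicate 2 the highest (log2 fold change -0.56, SE 0.0839, adjusted p = 0.000541). PLOD2, a lysyl hydroxylase, was also lower (-0.62, adjusted p = 0.00122), while P4HA2 (0.077, adjusted p = 0.774) and PLOD1 (-0.15, adjusted p = 0.54) did not pass the test. Of the other members called, the mitochondrial protein FAM162A (-0.51, adjusted p = 0.000523), the histone demethylase KDM3A (-0.49, adjusted p = 0.000854), the MAX partner MXI1 (-0.42, adjusted p = 0.00094), the transcriptional repressor BHLHE40 (-0.38, adjusted p = 0.00768) and TMEM45A (-0.57, adjusted p = 0.00118) fell. EGLN3, one of the HIF prolyl hydroxylases, fell (-0.57, adjusted p = 0.00958, call kept in 6 of 8 fits, adjusted p 0.0779 without T-REX 1), as did NDRG1 (-0.36, adjusted p = 0.0124, kept in 3 of 8, up to 0.0826 without light alone 3). Of members that were not called, VEGFA (-0.23, adjusted p = 0.143) and ERO1A (-0.27, adjusted p = 0.0959) had the highest counts. The subunits of HIF and their regulators were a separate list, of which 0 of 7 were called, with HIF1A at -0.11, adjusted p = 0.463 and ARNT at 0.069, adjusted p = 0.677. With the RUV factors, 1 of the 7 was called. With 1.29% of all genes called, a count of 0 in 7 does not set this list apart from all genes.

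The HIF core motif ACGTG lies in front of many of these genes. In the 250 bases before the RefSeq starts (build GRCh38.p14), read on both strands, it occurred in 12 of 28 promoters (42.9%) of the hypoxia and glycolysis genes called lower, in 22.4% of the 15283 promoters of genes tested and in 18.5% of all 35116 promoters. The genes come from lists of known hypoxia and glycolysis genes, so an excess over all genes cannot be told apart from the choice of lists. The share among members that were not called was not computed. The motif is contained in the E-box CACGTG, which several other factors bind. The table held promoters for 19 of the 22 genes, not for BNIP3L, NDRG1 and STC1. By gene, 11 of the 19 (57.9%) held the motif, beside 29.1% of genes tested. It was not found for CXCR4, EGLN3, KDM3A, TMEM45A, SLC2A1, PFKFB4, PGAM1 and PKM. Only promoters with the motif were eligible to be shown, so its presence in all 5 below follows from the choice. Among the eligible, these 5 stand for the main functions (mitophagy, collagen modification, glycolysis). They are written 5′ to 3′ on the gene's strand. Capitals mark ACGTG or, for a match on the opposite strand, its reverse complement.
BNIP3, chr10:131981924-131982173, minus strand: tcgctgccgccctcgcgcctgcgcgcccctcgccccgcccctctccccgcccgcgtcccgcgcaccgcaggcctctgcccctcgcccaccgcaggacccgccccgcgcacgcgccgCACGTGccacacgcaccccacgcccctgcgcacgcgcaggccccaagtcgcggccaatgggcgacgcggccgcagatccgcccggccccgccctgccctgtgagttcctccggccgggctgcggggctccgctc
P4HA1, chr10:73096867-73097116, minus strand: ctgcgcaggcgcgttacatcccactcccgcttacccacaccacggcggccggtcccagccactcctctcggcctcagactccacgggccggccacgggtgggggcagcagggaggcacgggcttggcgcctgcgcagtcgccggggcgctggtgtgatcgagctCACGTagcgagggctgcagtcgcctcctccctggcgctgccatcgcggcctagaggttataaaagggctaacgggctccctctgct
PLOD2, chr3:146161185-146161434, minus strand: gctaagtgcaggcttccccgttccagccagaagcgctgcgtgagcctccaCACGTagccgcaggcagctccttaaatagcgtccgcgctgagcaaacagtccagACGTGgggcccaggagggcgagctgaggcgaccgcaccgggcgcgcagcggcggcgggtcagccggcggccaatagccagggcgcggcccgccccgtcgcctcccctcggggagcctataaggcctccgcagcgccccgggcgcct
LDHA, chr11:18394313-18394562, plus strand: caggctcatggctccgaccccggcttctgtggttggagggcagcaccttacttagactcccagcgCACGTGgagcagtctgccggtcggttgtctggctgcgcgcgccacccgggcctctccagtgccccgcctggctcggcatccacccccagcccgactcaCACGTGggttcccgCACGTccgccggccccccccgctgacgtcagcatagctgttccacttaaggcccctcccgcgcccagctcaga
PGK1, chrX:78103998-78104247, plus strand: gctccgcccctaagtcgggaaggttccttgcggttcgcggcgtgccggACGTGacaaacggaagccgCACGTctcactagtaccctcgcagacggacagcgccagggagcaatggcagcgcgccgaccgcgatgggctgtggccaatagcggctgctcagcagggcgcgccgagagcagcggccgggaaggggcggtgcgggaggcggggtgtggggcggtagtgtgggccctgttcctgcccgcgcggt

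In BNIP3 and LDHA, matches on both strands overlap in the palindrome CACGTG, and LDHA has a further single match, whereas those of P4HA1, PLOD2 and PGK1 lie outside it. A match is a description of letters and was not tied to binding in these cells.

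Genes of glycolysis and pyruvate metabolism moved the same way: 9 of 24 measured genes fell, 0 rose and the median was -0.35. SLC2A1, the glucose transporter GLUT1, stood at 35.4, 34.3, 43.03 and 37.03 CPM under T-REX and 53.02, 62.7, 68.6 and 57.2 CPM with light alone. The groups did not overlap (log2 fold change -0.69, SE 0.0928, adjusted p = 0.000179). PFKFB3, which makes the activator of phosphofructokinase, fell to the largest extent of the list (log2 fold change -0.71, SE 0.102, adjusted p = 0.000369), and PFKFB4 fell less firmly (-0.51, adjusted p = 0.0376, kept in 1 of 8 fits, up to 0.134 without light alone 3). LDHA, which turns pyruvate into lactate, stood at 348, 388, 434 and 366 CPM under T-REX and 567, 665, 660.3 and 581 CPM with light alone. T-REX replicate 3 was the highest of its arm, and still below the lowest light alone library (log2 fold change -0.69, SE 0.0843, adjusted p = 0.000159).

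Along the pathway, HK2, the inducible hexokinase, was lower (-0.55, adjusted p = 0.00877), as were PGK1 (-0.47, adjusted p = 0.00228), PGAM1 (-0.38, adjusted p = 0.0015) and PKM, the pyruvate kinase (-0.35, adjusted p = 0.00138). PDK1, which holds pyruvate dehydrogenase inactive, fell too (-0.59, adjusted p = 0.00381). PGK1 stood at 154, 175, 184 and 170.4 CPM under T-REX and 222, 248, 249 and 222 CPM with light alone, with no overlap. The constitutive hexokinase HK1 was the one member with a positive value (0.0083, adjusted p = 0.978), which turned negative in 3 of the 8 leave-out fits. The abundant GAPDH (-0.14, adjusted p = 0.577) and ENO1 (-0.26, adjusted p = 0.0863) did not pass the test. Hypoxia targets called ranged from 11 to 16 over the alternatives, and glycolysis genes from 8 to 16. ATP5IF1, the inhibitor of ATP synthase, was the one called of 77 nuclear genes of oxidative phosphorylation (log2 fold change -0.36, SE 0.0605, adjusted p = 0.00142). That is 1.3% of the list, near the 1.29% of all genes tested. AK4, a mitochondrial adenylate kinase outside these lists, fell from 205 ± 17.01 to 142 ± 4.6 CPM (mean ± SD, n = 4 each; log2 fold change -0.52, SE 0.0715, adjusted p = 0.000188).

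**Figure D2:**
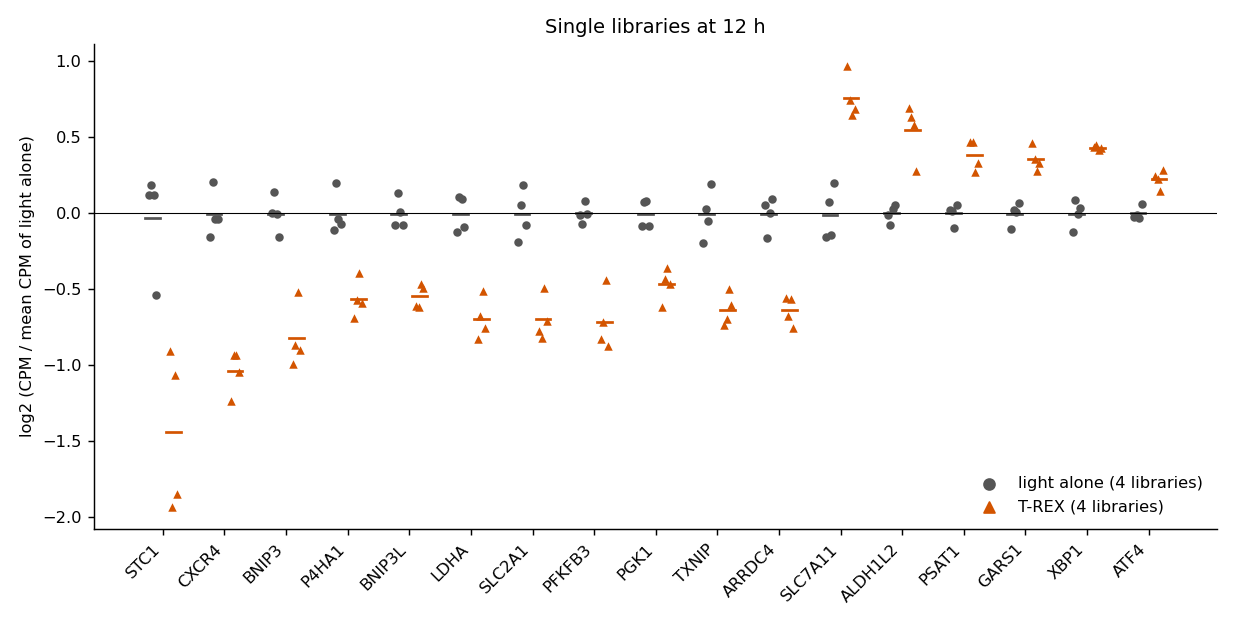
Single libraries at 12 h for 17 genes, each as the log2 of its CPM over the mean CPM of light alone (y axis). Grey circles are the 4 light alone libraries, orange triangles the 4 T-REX libraries and bars the means of the log2 values. The 17 genes were picked among called genes, of which 187 of 189 have groups that do not overlap, and in none of the 17 do they overlap. The spread is widest for STC1 and narrow for XBP1 under T-REX (72.7 to 74.5 CPM).

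Genes of the ATF4 programme moved the other way. Of 18 measured regulators and effectors 5 rose and 0 fell (median 0.29), of 20 genes of amino acid and one-carbon synthesis 5 rose and 0 fell (median 0.24), and of 15 amino acid transporters 6 rose and 0 fell (median 0.26). SLC7A11, the cystine importer of system xc-, stood at 158, 135, 126 and 130.04 CPM under T-REX and 72.4, 84.98, 73.1 and 92.7 CPM with light alone. Its lowest T-REX library was above its highest light alone library, and the mean was 70.3% higher (log2 fold change 0.77, SE 0.11, adjusted p = 0.000958). SLC7A11 is also the one called member of 14 NRF2 targets, among which HMOX1 (0.22, adjusted p = 0.527), NQO1 (0.097, adjusted p = 0.873) and GCLM (0.0031, adjusted p = 0.992) were not called. SLC1A4, a carrier of alanine, serine and cysteine, also rose (log2 fold change 0.45, SE 0.0799, adjusted p = 0.00228). The glutamine carrier SLC38A1 (0.26, adjusted p = 0.00739, kept in 7 of 8 fits, 0.0586 without T-REX 1) and the cationic amino acid carrier SLC7A1 (0.26, adjusted p = 0.0117, kept in 5, up to 0.0824 without T-REX 1) rose less. SLC1A5 (0.29, adjusted p = 0.0414) and SLC6A9 (0.50, adjusted p = 0.0378) were called with all libraries and in 0 of 8 fits with a library left out.

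The serine and one-carbon pathway contributed most of the called enzymes. ALDH1L2, a mitochondrial folate enzyme, stood at 87.7, 83.9, 80.9 and 65.5 CPM under T-REX and 53.8, 51.4, 55.2 and 56.2 CPM with light alone. T-REX replicate 4 was the lowest of its arm and above all light alone libraries (log2 fold change 0.55, SE 0.0745, adjusted p = 0.000159). PSAT1, the aminotransferase of serine synthesis, stood at 149, 149.8, 131 and 136 CPM under T-REX and 109.8, 109, 101 and 112 CPM with light alone (log2 fold change 0.39, SE 0.0706, adjusted p = 0.00292). The mitochondrial folate enzymes MTHFD2 (0.33, adjusted p = 0.00381) and MTHFD1L (0.29, adjusted p = 0.00587) rose as well, and PCK2, the mitochondrial phosphoenolpyruvate carboxykinase, was called in 1 of 8 fits besides the whole set (0.54, adjusted p = 0.0471). ASNS, asparagine synthetase and a classic ATF4 target, was higher by 0.58 without passing the test (adjusted p = 0.0665). ASNSP1, a pseudogene of ASNS with which it may share reads, stood at 14.5, 16.2, 13.1 and 15.7 CPM under T-REX and 7.77, 8.8, 8.82 and 9.26 CPM with light alone (log2 fold change 0.78, SE 0.133, adjusted p = 0.00143).

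ATF4 itself stood at 391, 385, 364 and 400.5 CPM under T-REX and 324, 327, 323 and 344 CPM with light alone. The groups were apart but close (log2 fold change 0.23, SE 0.0528, adjusted p = 0.0251). The call was kept in 2 of 8 fits and lost without T-REX 1, 2 or 4 or light alone 1, 2 or 3, with an adjusted p of up to 0.11. CEBPG, a partner of ATF4, rose (log2 fold change 0.30, SE 0.0551, adjusted p = 0.0033), and so did KLHL24 (log2 fold change 0.34, SE 0.0679, adjusted p = 0.00755). EIF4EBP1, a repressor of cap-dependent translation that mTORC1 inactivates, rose from 16.7 ± 1.25 to 22.98 ± 2.66 CPM (0.47, adjusted p = 0.0282, kept in 2 of 8 fits, up to 0.182 without T-REX 1). NIBAN1 had the largest rise among called genes with a symbol (log2 fold change 0.79, SE 0.189, adjusted p = 0.0302) and was kept in 1 of 8 fits. The stress markers DDIT3 (0.028, adjusted p = 0.969), ATF3 (0.13, adjusted p = 0.658), TRIB3 (0.15, adjusted p = 0.664) and SESN2 (0.39, adjusted p = 0.157) were not called, and GDF15 was higher by 0.55 (adjusted p = 0.0563).

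Of 20 cytosolic aminoacyl-tRNA synthetases, which load amino acids onto tRNAs, 5 rose and 0 fell (median 0.13). Of 16 mitochondrial synthetases 0 were called (median 0.024), which does not set that list apart from all genes, of which 1.29% were called. GARS1 stood at 256, 238, 226 and 234 CPM under T-REX and 173, 189, 187 and 195 CPM with light alone. Light alone replicate 4, the highest of its arm, stayed well below the lowest T-REX library (log2 fold change 0.36, SE 0.0517, adjusted p = 0.000311). MARS1 (0.26, adjusted p = 0.00762, kept in 7 of 8 fits, 0.0574 without light alone 3) and YARS1 (0.39, adjusted p = 0.0216, kept in 3, up to 0.0937 without T-REX 1) rose, and SARS1 (0.25, adjusted p = 0.0251) and IARS1 (0.17, adjusted p = 0.0432) were called in 2 and 1 of the 8 fits. Counts of the 4 lists that rose moved with the fit. They ranged over the alternatives, leave-outs included, from 2 (without light alone 2 among others) to 10 for ATF4 regulators, from 2 (without T-REX 1) to 10 for transporters, from 4 to 11 for synthesis and from 2 (without light alone 1 or 2) to 13 for the synthetases, and the highest counts came with the RUV factors.

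TGATGNAA, the core of the element to which ATF4 dimers bind, occurred within 250 bases of 6 of 28 promoters (21.4%) of the genes called higher in these 4 lists, in 1.65% of promoters of genes tested and in 3.14% of all promoters. The 6 promoters belong to 5 of the 17 genes found in the table (CEBPG, GARS1, IARS1, MTHFD1L and SLC1A5). ALDH1L2, EIF4EBP1, SLC7A11 and YARS1 had no entry. Here too the lists were chosen for the ATF4 programme, so an excess over all genes cannot be told apart from that choice. Members that were not called were not counted. Of the 5 genes with the element, GARS1 and CEBPG are shown because they are a synthetase and a regulator whose calls held in every leave-out fit. Capitals mark TGATGNAA or its reverse complement, and the build is GRCh38.p14.
GARS1, chr7:30594628-30594877, plus strand: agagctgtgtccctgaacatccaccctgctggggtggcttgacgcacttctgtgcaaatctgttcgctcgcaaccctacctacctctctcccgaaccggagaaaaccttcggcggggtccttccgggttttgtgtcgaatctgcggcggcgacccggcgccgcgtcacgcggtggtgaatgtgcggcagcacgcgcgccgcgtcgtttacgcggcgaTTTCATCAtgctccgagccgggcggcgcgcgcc
CEBPG, chr19:33373863-33374112, plus strand: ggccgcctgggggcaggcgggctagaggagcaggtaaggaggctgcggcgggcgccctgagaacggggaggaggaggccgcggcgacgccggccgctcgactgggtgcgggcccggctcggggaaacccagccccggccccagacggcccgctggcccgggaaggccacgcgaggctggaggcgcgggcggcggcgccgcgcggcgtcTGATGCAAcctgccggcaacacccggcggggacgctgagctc

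GARS1 holds the element on the opposite strand and CEBPG on its own strand, each within 50 bases of the start. ACGTG, the motif of the hypoxia genes, occurred in 9 of the same 28 promoters (32.1%).

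In the endoplasmic reticulum, 4 of 26 measured genes of XBP1, ATF6 and protein folding rose and 0 fell (median 0.11). XBP1, the transcription factor whose mRNA is spliced by IRE1, stood at 73.8, 74.5, 72.7 and 73.4 CPM under T-REX and 50.2, 57.99, 54.3 and 55.8 CPM with light alone. The 4 T-REX libraries lay within 2 CPM of each other and all were above light alone (log2 fold change 0.43, SE 0.0589, adjusted p = 0.000179). SEC24D, a cargo adaptor of the COPII coat, rose (0.29, adjusted p = 0.00743, kept in 7 of 8 fits, 0.0671 without T-REX 1). CREB3L2, a membrane-bound transcription factor like ATF6, was kept in 1 (0.25, adjusted p = 0.0251, up to 0.148 without T-REX 1) and the chaperone HSPA5 (BiP) in 0 of 8 fits (0.21, adjusted p = 0.0372). HSP90B1 (0.11, adjusted p = 0.366) and CANX (0.13, adjusted p = 0.154) were the most abundant members that were not called. The number of called members was 1 without T-REX replicate 1 and 11 with the RUV factors. Against probe alone 13 members were higher and 13 lower under T-REX (median -0.00069), and against DMSO 19 were higher and 7 lower (median 0.062).

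Sterol synthesis gave 2 genes that rose of 22 (median 0.099). The direction of this list depended on the control. Against probe alone 4 members were higher and 18 lower under T-REX (median -0.11), and against DMSO 9 were higher and 13 lower (median -0.025). HMGCS1, the enzyme before the rate-limiting step of cholesterol synthesis, rose (log2 fold change 0.32, SE 0.0626, adjusted p = 0.00486), and INSIG1, the retention factor of SREBP, was kept in 3 of 8 fits (0.27, adjusted p = 0.016, up to 0.0852 without light alone 1). ABCA1, the cholesterol exporter, is outside the list and rose from 51.3 ± 5.16 to 73.9 ± 8.45 CPM (log2 fold change 0.53, SE 0.0955, adjusted p = 0.00351). LPIN1, a phosphatidate phosphatase, rose (log2 fold change 0.37, SE 0.0623, adjusted p = 0.00132). SLC16A9, a member of the monocarboxylate transporter family, rose too (log2 fold change 0.67, SE 0.119, adjusted p = 0.00235).

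TXNIP and ARRDC4, arrestin-like brakes on glucose uptake that the glucose sensor MondoA drives, both fell. TXNIP stood at 22.2, 22.9, 26.3 and 24.4 CPM under T-REX and 32.4, 37.8, 35.7 and 42.4 CPM with light alone (log2 fold change -0.63, SE 0.0993, adjusted p = 0.00088), and ARRDC4 at 25.7, 23.7, 25.5 and 22.3 CPM under T-REX and 39.1, 33.7, 37.8 and 40.2 CPM with light alone (log2 fold change -0.63, SE 0.0742, adjusted p = 4.93e-05). Neither gene's groups overlapped. ARRDC3, another arrestin-like protein, rose instead, from 132 ± 12.0 to 190.3 ± 15.4 CPM (0.52, adjusted p = 0.015, kept in 5 of 8 fits, 0.07 without light alone 3 and also lost without T-REX 1 or light alone 1). The subunits MLXIP (MondoA, -0.022, adjusted p = 0.937) and MLX (0.097, adjusted p = 0.77) were not called.

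Among signalling genes, BMP4, the secreted ligand, stood at 16.9, 19.6, 21.1 and 19.3 CPM under T-REX and 27.9, 31.2, 27.6 and 24.4 CPM with light alone (log2 fold change -0.54, SE 0.103, adjusted p = 0.00453). ID2, an inhibitor of bHLH factors induced by BMP signals, and SMAD6, which dampens them, fell together with it (log2 fold change -0.40, SE 0.057, adjusted p = 0.000226 for ID2, log2 fold change -0.57, SE 0.0973, adjusted p = 0.0015 for SMAD6). These were the 3 called of 17 genes of BMP and TGF-beta signalling (0 rose, median -0.081), while the receptors TGFBR1 (0.0095, adjusted p = 0.972) and BMPR2 (0.0083, adjusted p = 0.973) were not called. MAP2K6, a kinase that activates p38, stood at 33.9, 38.8, 35.9 and 31.5 CPM under T-REX and 56.2, 54.3, 53.2 and 50.6 CPM with light alone. It was the 1 called of 12 genes of the p38 cascade (log2 fold change -0.61, SE 0.0785, adjusted p = 9.79e-05), and MAPK14, p38 itself, was not called (-0.063, adjusted p = 0.651).

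IRS4, an adaptor of the insulin receptor and a marker of HEK293T cells, stood at 512, 558, 534 and 529.7 CPM under T-REX and 674, 659, 681 and 616 CPM with light alone (log2 fold change -0.30, SE 0.051, adjusted p = 0.00138). IGFBP5, an IGF-binding protein, fell (log2 fold change -0.52, SE 0.0798, adjusted p = 0.000648). The transferrin receptor TFRC, which brings iron into cells, stood at 262, 284, 279 and 275 CPM under T-REX and 375, 391, 374 and 361 CPM with light alone, with the arms far apart for its spread (log2 fold change -0.45, SE 0.0592, adjusted p = 0.000148). POU3F2, a POU factor of neural cells, stood at 68.3, 75.6, 69.6 and 65.9 CPM under T-REX and 91.2, 91.3, 90.96 and 89.8 CPM with light alone (log2 fold change -0.38, SE 0.076, adjusted p = 0.00749). DACH1, another developmental transcription factor, was not called (-0.14, adjusted p = 0.359). Of the cell cycle lists, KIF20A (-0.28, adjusted p = 0.0133, kept in 3 of 8 fits) was the 1 called of 20 mitosis genes and CCND1 (-0.52, adjusted p = 0.0124, kept in 5) the 1 called of 9 D cyclins and G1 kinases, both lower, while 0 of 20 DNA replication genes were called. The adjusted p rose to 0.0802 for KIF20A without T-REX 1 and to 0.093 for CCND1 without light alone 3. With 1.29% of all genes called, counts of 0 or 1 do not set these cell cycle lists apart from all genes.

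HRK, a BH3-only activator of apoptosis, stood at 31.2, 30.5, 27.1 and 29.5 CPM under T-REX and 21.3, 18.8, 19.97 and 22.4 CPM with light alone. It was the 1 called of 13 BCL2 family genes (log2 fold change 0.52, SE 0.0908, adjusted p = 0.00167), and PMAIP1 was not called (0.24, adjusted p = 0.32). MDM2, the ubiquitin ligase that restrains p53, stood at 1296, 1234, 1228 and 1226 CPM under T-REX and 1060.2, 1074, 952 and 1090.00 CPM with light alone, and was called in 1 of 8 fits (0.26, adjusted p = 0.0278, up to 0.158 without light alone 3). Of the 18 p53 targets, 17 had a positive value but 1 was called (median 0.12), and CDKN1A was at 0.093, adjusted p = 0.786. Against probe alone 9 of these targets were higher and 9 lower under T-REX (median -0.0092), and against DMSO 15 were higher and 3 lower (median 0.13).

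Few genes of RNA processing were called, but only 1.29% of all genes tested were. Counts of 0 or 1 in lists of this size do not set these lists apart from all genes. Of 20 cap-binding complex genes and partners, NCBP1 included, 0 were called (edgeR, median 0.015) and at most 1 in any alternative. NCBP2, the small subunit that contacts the cap, was at -0.0069, adjusted p = 0.983, and the export factor THOC2 was at -0.038, adjusted p = 0.775. SRSF2, a serine- and arginine-rich splicing factor, was the 1 called of 19 splicing regulators (log2 fold change -0.33, SE 0.0659, adjusted p = 0.00738), of which 7 were called with the RUV factors. SNRPD3, a core Sm protein of spliceosomal snRNPs, was the 1 called of 24 (-0.26, adjusted p = 0.00768, kept in 7 of 8 fits, 0.0525 without light alone 3). Of 79 cytosolic ribosomal protein genes 0 were called (median 0.031), and 14 were when only the 8 libraries were fitted. Of 41 replication-dependent histone genes 0 were called although 36 had a negative value (median -0.18). The libraries were depleted of ribosomal RNA rather than selected for poly(A), so transcripts without a tail, such as these histone mRNAs, remain in them. For histones, 8 members were called when only the 8 libraries were fitted, and 4 each without the DMSO arm and with the RUV factors.

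**Figure D3:**
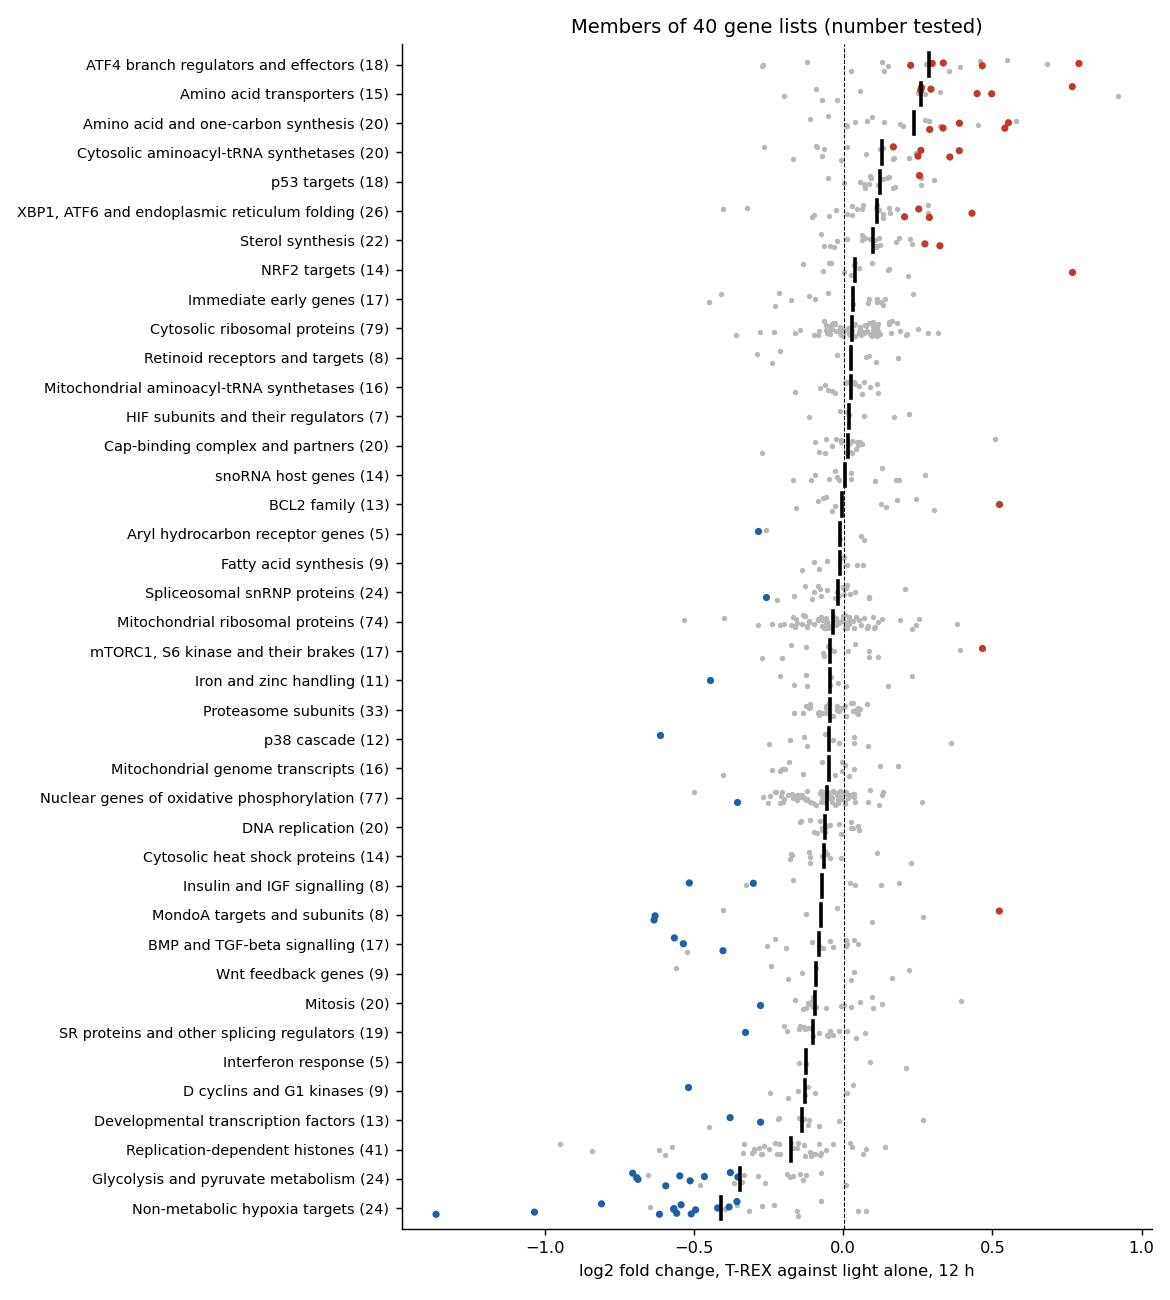
Members of 40 gene lists by their log2 fold change of T-REX against light alone at 12 h (x axis), 1 row per list, with the number tested in brackets and lists ordered by their median (black bars). Red points are members called higher, blue points members called lower and grey points the rest, and the dashed line marks the median of all genes tested. Hypoxia and glycolysis lists stand at the bottom with 22 blue points, ATF4, transporter and synthesis lists at the top, and most other lists have medians near 0.

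The 40 lists hold 69 of the 189 called genes, and 16 lists have no called member. The genes named next lie outside the lists. RTN4RL1, a receptor of myelin inhibitors, had few counts (-1.04, adjusted p = 0.0282, kept in 3 of 8 fits). The adaptor DOK3 fell (log2 fold change -0.62, SE 0.106, adjusted p = 0.0015). PCLO, a scaffold of the presynaptic active zone, had the smallest p of the genes that rose and stood at 179, 173, 179 and 162 CPM under T-REX and 122, 122, 129 and 125 CPM with light alone (log2 fold change 0.48, SE 0.0585, adjusted p = 7.31e-05). PTPN13, a tyrosine phosphatase, rose by less (log2 fold change 0.28, SE 0.0466, adjusted p = 0.00132). TINCR was called with overlapping groups (0.73, adjusted p = 0.0477, kept in 2 of 8 fits).

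Among other genes with large changes, most had few counts. FMNL1-AS1, a transcript antisense to FMNL1, stood at 2.8, 3.57, 4.49 and 3.22 CPM under T-REX and 6.05, 6.83, 6.48 and 4.94 CPM with light alone (-0.80, adjusted p = 0.00826, kept in 7 of 8 fits). Whether reads were counted by strand is not given in the sources used here, so reads of an antisense transcript and of its partner cannot be told apart. LYPD1 (-0.72, adjusted p = 0.0166, kept in 6), the synaptic adhesion protein SLITRK3 (-0.68, adjusted p = 0.0402, kept in 1) and the hyaluronan synthase HAS2 (-0.65, adjusted p = 0.0484, kept in 1) fell, all with means under 7 CPM in either arm. SLC16A6, a monocarboxylate transporter family member, stood at 14.04, 13.8, 12.2 and 10.8 CPM under T-REX and 8.13, 8.1, 7.1 and 9.55 CPM with light alone (0.63, adjusted p = 0.00988, kept in 6 of 8 fits). CYP4F3, a leukotriene-degrading enzyme, rose (0.58, adjusted p = 0.0173, kept in 4), and so did the microtubule-associated protein MAP2 (0.70, adjusted p = 0.0433, kept in 1) and the pseudogene DNM1P51 (0.74, adjusted p = 0.0385, kept in 1). ENSG00000245025, which has no symbol here, stood at 22.1, 16.8, 19.9 and 21.7 CPM under T-REX and 11.3, 12.3, 11.9 and 13.2 CPM with light alone (log2 fold change 0.73, SE 0.12, adjusted p = 0.00114).

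By type, 174 of the 189 called genes are protein-coding, 5 are lincRNAs, 4 are antisense transcripts and 3 are transcribed unprocessed pseudogenes. The nuclear lincRNA MALAT1, one of the most abundant transcripts, stood at 7119, 6769, 6659 and 6584 CPM under T-REX and 5723, 5824, 5434 and 5676 CPM with light alone, with all T-REX libraries above all light alone libraries (log2 fold change 0.26, SE 0.0485, adjusted p = 0.00351). The largest rise was that of ENSG00000240219, a lincRNA without a symbol here, from 1.55 ± 0.158 to 3.16 ± 0.34 CPM (log2 fold change 1.03, SE 0.204, adjusted p = 0.00639). Protein-coding genes called higher had a median of 13 exons in the transcript with most exons and a gene span of 49.4 kb, those called lower 6 exons and 28.8 kb, and all protein-coding genes tested 10 exons and 36.3 kb. Median lengths of the longest transcript were 5690, 4017 and 3894 nt. Median levels were 88.2, 61.1 and 30.8 CPM in the same order, and the part of level and length in these medians was not tested.

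The same arms were compared at 3 h and 6 h in other libraries than those of 12 h. Whether cells, transfections or days were shared between times is not given in the sources used here. There, 29 genes (0.197%) and 32 genes (0.218%) were called. Of the 73 genes called higher at 12 h, 64 (87.7%) had a positive value at 3 h and 72 (98.6%) at 6 h, beside 50.2% and 51.7% of all genes. Of the 116 called lower, 97 (83.6%) were negative at 3 h and 116 at 6 h, beside 49.8% and 48.3% of all genes. Called in the same direction at 12 h and 3 h were 6 higher genes (8.22% of the 12 h list and 50% of the 3 h list) and 5 lower genes (4.31% and 29.4%). At 12 h and 6 h they were 11 higher genes (15.1% and 61.1%) and 10 lower genes (8.62% and 71.4%).

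Called at all 3 times were XBP1, SEC24D and CREB3L2, all higher, and TXNIP, ARRDC4, POU3F2 and TIPARP, all lower. XBP1 was at 0.41 at 3 h (adjusted p = 0.000661) and 0.31 at 6 h (adjusted p = 0.0272), against 0.43 at 12 h. SEC24D was at 0.34 and 0.43 at 3 h and 6 h, and CREB3L2 at 0.42 and 0.39. TXNIP was at -0.74 and -0.88 at these times, ARRDC4 at -0.55 and -0.64, POU3F2 at -0.47 and -0.55, and TIPARP, a PARP enzyme that the aryl hydrocarbon receptor induces, at -0.41 and -0.63, all called. At 12 h TIPARP was at -0.29 (adjusted p = 0.0174, kept in 2 of 8 fits, up to 0.114 without T-REX 1). SLC7A11 was at 0.36 at 3 h (adjusted p = 0.16) and 0.69 at 6 h (adjusted p = 9.58e-05).

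As lists, hypoxia and glycolysis genes had another course. None of the 24 and 24 members was called at 3 h or 6 h, and the medians were -0.054 and -0.23 for hypoxia targets and 0.0066 and -0.092 for glycolysis, before -0.41 and -0.35 at 12 h. Of the hypoxia targets, 15 were negative and 9 positive at 3 h, and 22 were negative and 2 positive at 6 h. Some members were lower early without a call, such as CXCR4 (-0.50 at 3 h, -0.71 at 6 h), STC1 (-0.64 and -1.29) and EGLN3 (-0.19 and -0.60). The difference between the 12 h and 3 h contrasts was negative for 22 of 24 and 24 of 24 members (medians -0.36 and -0.44), beside 7468 of all 14685 genes (median -0.0031). This lean is not particular to these lists. It was negative for 38 of 41 replication-dependent histone genes (median -0.32) and 67 of 77 nuclear genes of oxidative phosphorylation (median -0.16), though for only 2 of 18 p53 targets. Tested for each gene over 48 libraries, this difference was called for 3 genes (0.0204%, with 1083 at an unadjusted p of at most 0.05), P4HA1 (-0.67, SE 0.13, adjusted p = 0.0421), TMEM45A (-0.69, SE 0.133, adjusted p = 0.0421) and STC2 (-0.41, SE 0.0834, adjusted p = 0.0496). Between 12 h and 6 h it was called for 0 genes (0%, 326 at an unadjusted p of at most 0.05, edgeR), as in every alternative run. Leaving out 1 library gave 0 to 13 genes between 12 h and 3 h.

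Levels over time were scaled over all 48 libraries, and changes within an arm were not tested. At 3 h P4HA1 stood at 44.5 ± 2.35 under T-REX and 41.4 ± 1.94 with light alone (CPM, mean ± SD, n = 4), at 6 h at 39.5 ± 1.4 under T-REX and 48.7 ± 6.42 with light alone and at 12 h at 42.7 ± 3.5 under T-REX and 62.96 ± 6.2 with light alone. The mean with light alone was higher at each later time, while that under T-REX lay between 39.5 and 44.5 CPM. BNIP3 went from 34.1 ± 5.11 under T-REX and 34.4 ± 3.4 with light alone at 3 h to 36.02 ± 5.26 under T-REX and 63.1 ± 5.08 with light alone at 12 h, and SLC2A1 from 33.7 ± 3.81 under T-REX and 35.0 ± 1.72 with light alone to 36.6 ± 3.64 under T-REX and 59.2 ± 6.55 with light alone, the same pattern. For LDHA the mean under T-REX was lower at the later time, from 537 ± 68.7 under T-REX and 539 ± 31.7 with light alone at 3 h to 375 ± 34.5 under T-REX and 606 ± 49.3 with light alone at 12 h. The differences between times for BNIP3, SLC2A1 and LDHA were not called (adjusted p = 0.0647, 0.0972 and 0.0647). STC2, a secreted relative of STC1 that ATF4 induces, was called higher at 3 h (0.29, adjusted p = 0.00519) and was at -0.12 at 12 h (adjusted p = 0.351).

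**Figure D4:**
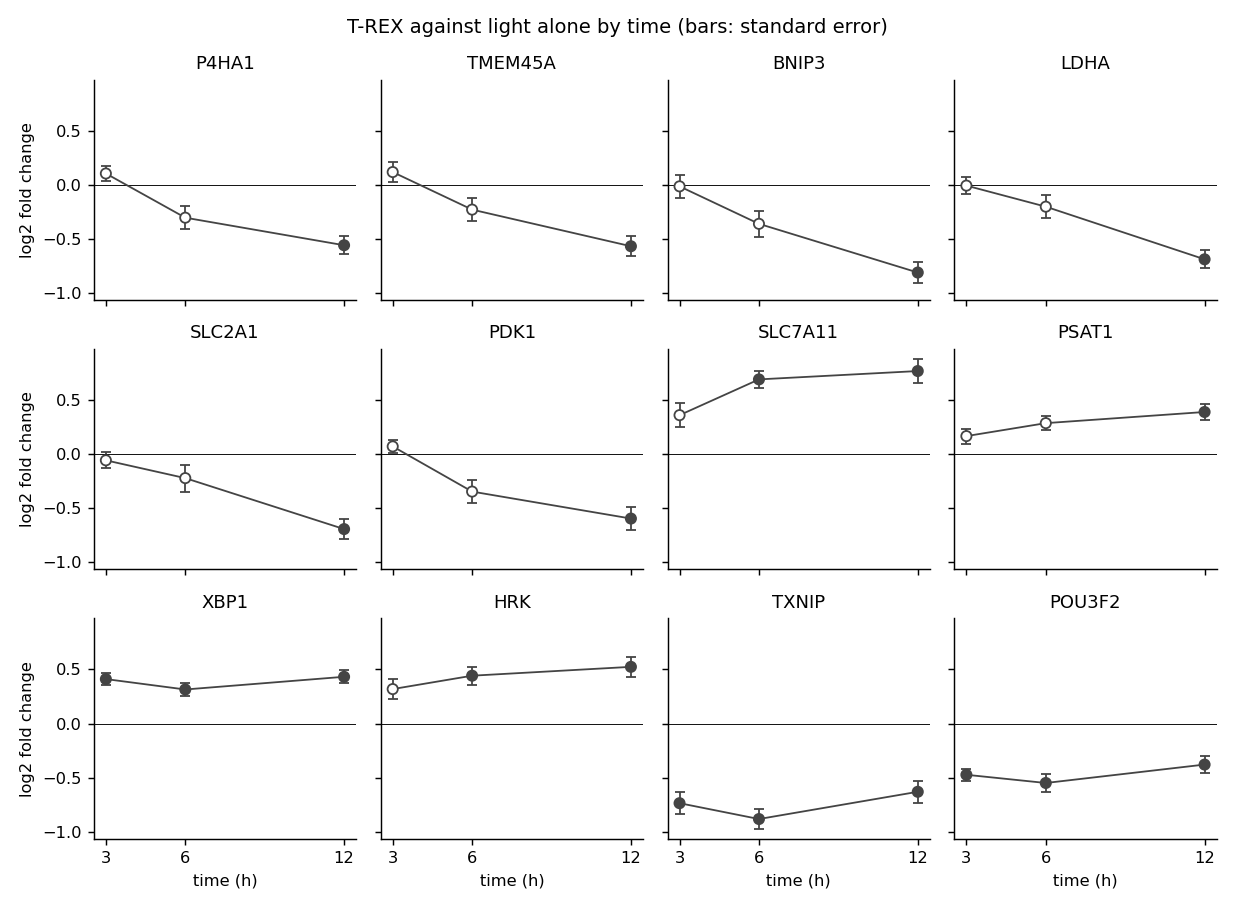
Log2 fold change of T-REX against light alone (y axis) at 3, 6 and 12 h (x axis) for 12 genes, with standard errors. Filled points have an adjusted p of at most 0.05 in the fit of that time, open points do not. P4HA1, TMEM45A, BNIP3, LDHA, SLC2A1 and PDK1 start near 0 and fall to between -0.56 and -0.81, while XBP1, TXNIP and POU3F2 are filled at all times. Hypoxia targets with lower values before 12 h, such as CXCR4 and STC1, are not plotted.

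At 12 h, T-REX was also compared with probe alone, which gave 103 calls (0.701%), and with DMSO, which gave 1598 (10.9%). Light alone against DMSO gave 2 (0.0136%). These comparisons share the T-REX or the light alone libraries with the one described, so their values are set side by side and are no independent support. Of the 73 genes called higher, 20 were also called higher against probe alone (median of the 73 0.19) and 66 against DMSO (median 0.32). Of the 116 called lower, 33 were also called lower against probe alone (median of the 116 -0.24) and 107 against DMSO (median -0.38). Most calls were thus not called against probe alone. For the hypoxia and glycolysis genes plotted, the log2 fold change of T-REX was negative against each of the 3 controls. BNIP3 stood at 36.8 ± 5.56 CPM under T-REX (mean ± SD, n = 4 each), while light alone gave 64.5 ± 5.28, probe alone 67.95 ± 8.38 and DMSO 63.4 ± 5.2 CPM. LDHA stood at 384 ± 36.8, 619 ± 51.3, 594 ± 69.4 and 634 ± 55.1 CPM in the same order. SLC7A11 stood at 137 ± 14.2, 80.8 ± 9.83, 82.7 ± 12.3 and 73.5 ± 9.85 CPM, its 3 controls also close together. SLC7A11 does not stand for its lists. Of 18 ATF4 regulators, 1 was called higher against probe alone (median 0.17) and 7 against DMSO (median 0.24). Transporters gave 4 and 8 of 15, synthesis genes 6 and 8 of 20 and cytosolic synthetases 2 and 8 of 20. No member of these 4 lists was called lower, save 2 synthetases against DMSO.

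Among the many called genes without a call against probe alone, some stood nearer to probe alone than to light alone under T-REX, such as those named next. BMP4 stood at 19.2 ± 1.74, 27.8 ± 2.75, 17.4 ± 1.06 and 29.7 ± 5.04 CPM in that order of arms. Its log2 fold change under T-REX was -0.54 over light alone, 0.14 over probe alone (adjusted p = 0.682) and -0.63 over DMSO (adjusted p = 0.000394). IRS4 stood at 534 ± 19.2, 658 ± 29.4, 528 ± 28.6 and 692 ± 40.7 CPM, and was 0.016 against probe alone (adjusted p = 0.949). ID2 was at -0.079 (adjusted p = 0.677), HSPA5 at 0.039 (adjusted p = 0.837) and MDM2 at -0.082 (adjusted p = 0.683) against probe alone. The plasmid transcript had the same order, with NCBP1 at 58795 ± 5356, 41352 ± 6918, 60609 ± 10235 and 35441 ± 4502 CPM, and its part in these genes was not tested.

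HMGCS1 and TIPARP are examples of genes called against light alone without a call in the same direction against either of the other controls. How many such genes there are was not counted. Of these examples only TIPARP stood apart with light alone, and HMGCS1 was not called in light alone against DMSO. HMGCS1 stood at 128 ± 6.05, 102 ± 5.97, 142 ± 6.64 and 118 ± 11.6 CPM in that order, so it was 0.32 against light alone but -0.15 (adjusted p = 0.338) and 0.11 (adjusted p = 0.244) against the others. TIPARP stood at 69.6 ± 4.72, 84.8 ± 5.26, 58.4 ± 3.72 and 58.6 ± 3.48 CPM. It was lower under T-REX than with light alone but higher than with DMSO (0.25, adjusted p = 0.0148), and it was 1 of the 2 genes called in light alone against DMSO (0.53, adjusted p = 8.26e-05).

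**Figure D5:**
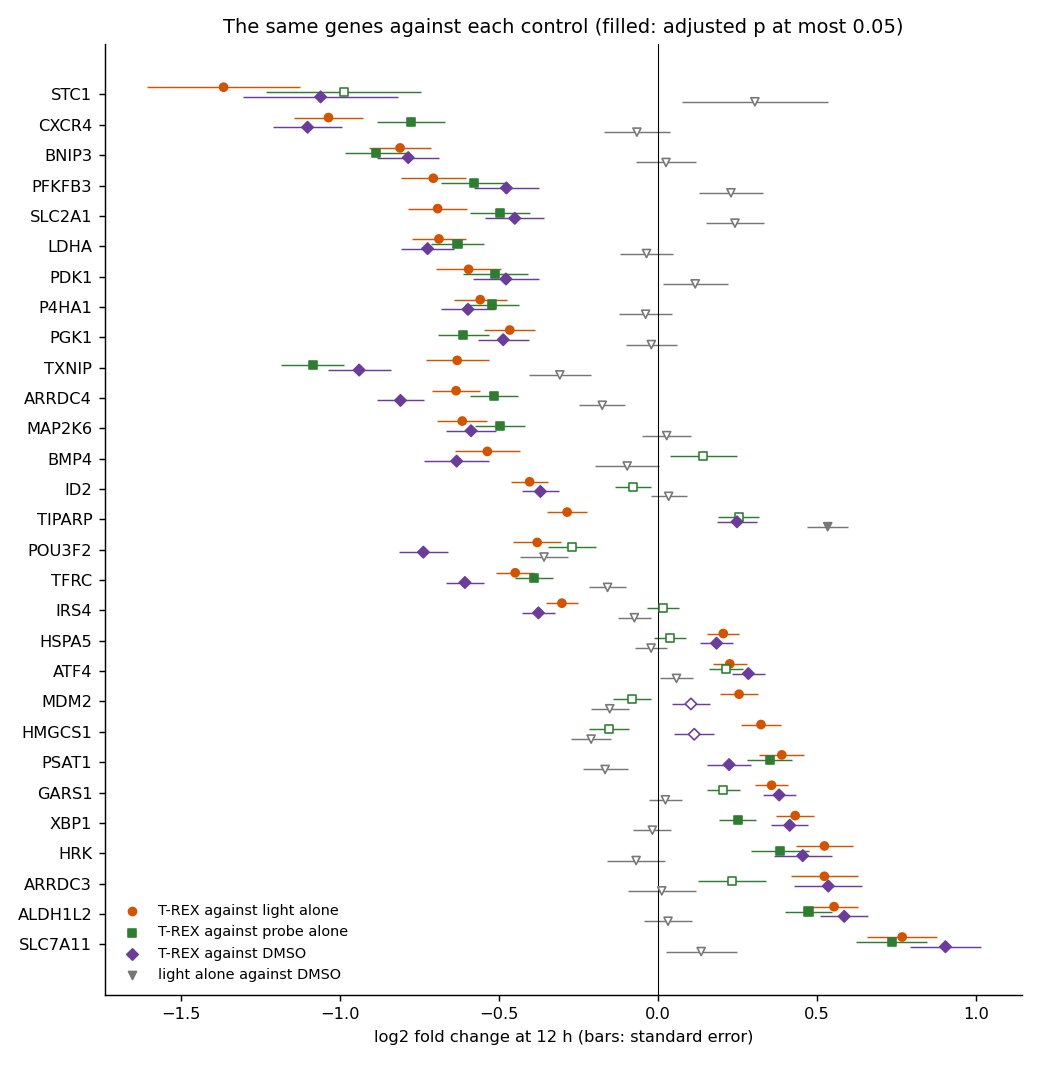
Log2 fold changes at 12 h (x axis, bars are standard errors) of 29 genes for T-REX against light alone (orange circles), against probe alone (green squares) and against DMSO (purple diamonds), and for light alone against DMSO (grey triangles). Filled points have an adjusted p of at most 0.05. Orange, green and purple points lie on 1 side of 0 for hypoxia and glycolysis genes and for SLC7A11, green points lie near 0 for BMP4, ID2, IRS4, HSPA5 and MDM2, and the grey point is filled for TIPARP alone of the 29.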

How the data were processed

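RNA was sequenced in 48 libraries (4 arms, 3 times, 4 replicates, which the study describes as independent biological replicates), after depletion of ribosomal RNA, as stranded paired-end libraries. The authors deposited counts per gene for each time, which are raw whole numbers, and log2 CPM made from them. The authors also deposited 2 RUV factors per library, each a score, in their sample sheets, and how they were computed is not stated. The submitters' processing notes name bcl2fastq. The study's reporting summary names cutadapt, TopHat and Cufflinks for the time-resolved RNA-seq. The counter behind the deposited counts, its strand setting and the genome build are not given in the sources used here. Gene types were read from GENCODE 29, which held 14556 of the 14685 identifiers, and 13503 identifiers had a symbol.

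Counts were fitted with edgeR 4.0.16 (R 4.3.3) over the 16 libraries of 12 h, with TMM factors (0.993 to 1.02 in the 8 libraries), filterByExpr (which removed 0 genes) and the quasi-likelihood F test. The threshold was a Benjamini-Hochberg adjusted p of 0.05 over all genes, and folds are T-REX over light alone unless stated. The fits of 3 h and 6 h were made alike, and the differences between times were contrasts over 48 libraries. CPM values are TMM-scaled, and the SD is that of 4 libraries. Replicates were distinct libraries, and chi-square values between them were 5.30 to 11.2 times their degrees of freedom. The spread of log2 CPM and the pairing check used 10291 genes. Alternatives were RLE factors, TMM without NCBP1, no filter, a mean of at least 100 counts, a replicate block, the RUV factors, only 2 arms, DESeq2 1.42.0, limma 3.58.1 on the deposited log2 CPM, and each library left out. The code was tested on simulated data.

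The text names NCBP1 and genes that the paper discusses, up to 15 called genes per direction with the largest changes (mean of at least 1 CPM) and up to 10 with the smallest p, and, of each gene list, up to 4 called members per direction and the 2 most abundant members that were not called. Chosen after their values were seen were the other members named for their pathway (such as PDK1, HK2, PFKFB4, PGK1, PGAM1, PLOD1, PLOD2, P4HA2, TMEM45A, KDM3A, MXI1, BHLHE40, NDRG1, ASNS, DDIT3, ATF3, TRIB3, SESN2, GDF15, STC2, HK1, SLC1A5 and IARS1), and MALAT1 and ENSG00000240219. Gene lists and members were chosen with earlier results of these data known. Promoters are 250 bases before RefSeq starts of GRCh38.p14, matched by symbol. A few genes are not reported here.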

Additional observations from a re-analysis of the deposited data

Results flagged for a closer look

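Among 242 sets of 4 libraries (the genes named above, in each arm), 8 held a library that stood apart from the other 3 by Dixon's test at the 95% level (3.31% of the sets, where chance gives about 5%). STC1 was low in light alone replicate 4 (4.83 CPM against 7.60 to 7.97 in the others). That library was the high one for YARS1 (155.9 CPM against 133.6 to 137.2), TRIB3 (22.6 CPM against 20.1 to 20.4) and NQO1 (4.29 CPM against 3.44 to 3.55). T-REX replicate 1 was the high one for PCK2 (22.3 CPM against 15.9 to 16.7) and MDM2 (1296 CPM against 1226 to 1234). SLITRK3 was low in T-REX replicate 4 (3.86 CPM against 4.36 to 4.42) and HAS2 high in T-REX replicate 2 (4.19 CPM against 3.64 to 3.71).

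The log2 fold change of T-REX against light alone differed between 12 h and 3 h for 3 genes in edgeR's test of the difference itself. It was lower at 12 h by -0.67 for P4HA1, by -0.69 for TMEM45A and by -0.41 for STC2.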

How the results depend on the processing

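RLE factors, removal of NCBP1, no filter and a minimum mean of 100 counts left the count of 189 calls within 1.5 times (189 to 209), as did limma on log2 CPM (190). More genes were called with only the 2 arms (1127, of which 522 higher and 605 lower), with the RUV factors (1266, 563 and 703), with DESeq2 (409, 165 and 244) and, as a choice made after seeing the data, in the 12 libraries without DMSO (865, 363 and 502). Leaving out 1 library gave 94 to 616 calls, 31 to 257 higher and 63 to 359 lower, with the most without DMSO replicate 3 and the fewest without T-REX replicate 1. The wide DMSO spread is part of the pooled estimate. The cause of the other differences was not tested. NCBP1 passed the threshold with the RUV factors (0.51) and with DESeq2 (0.51), and ranged from 0.44 to 0.62 with 1 library left out. The count of genes that differ between 12 h and 3 h was 2 with only these arms and 0 to 13 with 1 library left out, and between 12 h and 6 h it was 0 throughout.

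Of 124 named genes, none turned sign or lost its call with RLE factors, without NCBP1 in the table, without a filter or with DESeq2. With limma 4 lost their call (HAS2, PCK2, TINCR and SLC1A5). With 1 library left out, the sign turned only for 8 genes that were not called. Their ranges were -0.051 to 0.017 for MLXIP, -0.038 to 0.031 for NCBP2, -0.023 to 0.043 for BMPR2, -0.032 to 0.046 for TGFBR1, -0.039 to 0.049 for GCLM, -0.016 to 0.048 for NEFM, -0.025 to 0.055 for HK1 and -0.072 to 0.19 for DDIT3.

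Over the 10291 genes of the pairing check, libraries with the same replicate number did not deviate together. The plasmid-borne NCBP1 was an exception. Its share of the counts was highest in replicate 4 of each arm (6.56% for T-REX, 5.07% for light alone, 7.53% for probe alone, 4.18% for DMSO). With the replicate number as a block, the SE of its log2 fold change was 0.0576 instead of 0.128. Correlations of libraries with the same number were 0.0070, 0.026, 0.14 and -0.088 for replicates 1 to 4, and 1 of 4 correlated best with its own number. The number was therefore not taken as a pairing in the main fit. With the replicate number as a block, 185 genes were called at 12 h (77 higher, 108 lower), NCBP1 was called (0.52), 11 genes differed between 12 h and 3 h, and of the named genes 6 lost their call (HAS2, PCK2, MAP2, SLC1A5, PFKFB4 and IARS1) and 2 gained one (ERO1A and SESN2).

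The lowest count of a gene in the 8 libraries was 10, so depth limits the genes of a few CPM most. With 4 libraries in each arm and a biological coefficient of variation of 9.35%, a missed threshold does not show that a gene was unchanged.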
